A study of Mus musculus with 12 samples.

Results

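Mitosis and spindle genes were examined in a mouse T-cell leukemia (T-ALL) after the transcription factor Ikaros was restored. The set held 45 genes, chosen by symbol for their roles in mitosis, out of 27179 genes in the count table. No rule on their counts was used, but earlier results of these data were known when they were chosen. Every member was found, and all 45 passed the filter on low counts, as did 13134 genes in all. The cells came from a single primary leukemia, ALL101, carrying the Vav-tTA and TRE-GFP-shIkaros transgenes. In this design the Vav promoter drives the tetracycline-off transactivator in blood cells, which in turn switches on a hairpin RNA, linked to GFP, that silences Ikaros. Treated mice received doxycycline (Dox) for 3 days, which per the labels shuts the hairpin off, and their sorted spleen cells were GFPmid (3 mice). The controls were untreated recipients of the same leukemia, and their sorted cells were GFPhigh (3 mice). Whether untreated mouse 3 was sorted like the others is not known from the labels. Both groups carried the hairpin transgene, the drug and the GFP gate changed together and cannot be told apart, and a leukemia without the hairpin given the drug was not analysed here.

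Mitosis is driven by the kinase CDK1 bound to cyclin A or B. Plk1 and the Aurora kinases build the spindle, the spindle checkpoint holds anaphase until kinetochores are attached, and kinesins and the centralspindlin pathway then part the chromosomes and the cell. Transcripts of these genes are known to peak together late in the cycle, under the B-MYB and FOXM1 transcription factors and the DREAM repressor, which is why they serve as a readout of proliferation.

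Each RNA was sequenced in 2 runs, summed per mouse, and totals were 29904744 to 44949303 counts per mouse. The library name of untreated mouse 3 lacks the sort wording of the others, and calls that change without it are given beside the gene. Levels are CPM, counts normalised by library size to a common total and further adjusted by TMM factors (0.99 to 1.006). A shift shared by all genes would therefore not show. In these bulk samples, fewer cells in mitosis and less RNA per cell cannot be told apart. Ikzf1, which encodes Ikaros and is the target of the hairpin, was at 1438, 1523 and 1495 CPM in doxycycline mice, against 153, 149.7 and 159 CPM in untreated mice. T-lineage markers (11 genes) summed to between 11444 and 11826.5 CPM in doxycycline mice and between 9314 and 9551 CPM in untreated mice. Of these, 7 rose, Tcf7 (4846 CPM in doxycycline mice against 3575 CPM in untreated mice) with the largest share of the summed difference, and 1, Cd3g, fell. The B-cell markers (8 genes, 1 higher) summed to between 1.33 and 2.37 CPM in doxycycline mice and between 0.503 and 0.843 CPM in untreated mice, with Pax5 and Blk at a count of 0 in all mice. Erythroid markers (9 genes, 4 of them higher in the test) summed to between 88.3 and 118 CPM in doxycycline mice. In untreated mice 1, 2 and 3 the sums were 18.3, 11.5 and 58.1 CPM, the highest in the mouse whose library name lacks the sort wording. Myeloid markers (10 genes, 4 higher and 3 lower) summed to between 69.1 and 91.0 CPM in doxycycline mice, against between 26.1 and 45.8 CPM in untreated mice. Itgam (44.1 CPM in doxycycline mice against 9.86 CPM in untreated mice) had the largest share of that difference. The 3 lower genes were S100a8, S100a9 and Mpo, all named after their values were seen. Stromal and endothelial markers (8 genes, 3 higher and 1 lower) summed to between 360.3 and 368 CPM in doxycycline mice, against between 342 and 414 CPM in untreated mice. NK-cell markers (6 genes, 1 lower) summed to between 0.4 and 0.506 CPM in doxycycline mice, against between 0.399 and 0.753 CPM in untreated mice. The stromal sum hid opposite moves, since Pdgfrb was at 17.9 ± 5.32 CPM in doxycycline mice and 136 ± 30.3 CPM in untreated mice, while Pecam1 was at 206 ± 6.33 CPM in doxycycline mice and 134 ± 15.6 CPM in untreated mice (SD, n = 3 each), both named after their values were seen. Mitotic genes are also active in dividing erythroid and myeloid cells, and the part of these marker shifts in the results was not tested.

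Most mitosis and spindle genes stayed close to their untreated level after doxycycline. Of 45 members, 7 fell and 1 rose by edgeR's quasi-likelihood test (threshold of 0.05 on the adjusted p), and 37 did not pass. Thus 17.8% of members were called, where 50% of all tested genes were (25.2% lower and 24.8% higher). Members are well expressed, and among the 5766 tested genes at or above the lowest member's mean level, a background chosen after the data were seen, 54.8% were called (30.2% lower and 24.6% higher). The falls were Ect2, Mybl2, Anln, Aurkb, Ccnb1, Aurka and Kif20b, and the rise was Cenpa. Fitted log2 fold changes ran from -0.56 to 0.26 over the members, and their median was -0.09, beside -0.0037 over all tested genes. Of the members 32 were below 0 and 13 above, beside 6607 below and 6527 above over all tested genes. Among the 5766 genes at or above the lowest member's level, 3152 were below 0 and 2614 above. The members' median was -0.02 without doxycycline mouse 2 and -0.05 without doxycycline mouse 1, and between -0.12 and -0.06 without any other single mouse.

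The intervals were narrow enough to bound the changes that did not pass. The 95% interval of the log2 fold change lay wholly within 1.5-fold of no change (0.585 log2 units either way) for 41 of 45 members, or 91.1%. This held for 45% of all tested genes and for 67.5% of those at or above the lowest member's level. Among the 37 members that did not pass, no interval reached below -0.58 or above 0.44 log2 units. The intervals are per gene, without adjustment for the number of genes, and those of 34 of 45 members included 0. Plk1, Bub1b and Foxm1 had intervals that excluded 0 but did not pass the adjusted threshold. Only the intervals of Ect2, Anln, Aurkb and Mybl2 crossed the 1.5-fold bound, all on the lower side. The 2 groups of 3 mice did not overlap for 9 members (1 higher and 8 lower after doxycycline), or 20%, beside 61.2% of all tested genes (30.2% higher and 30.9% lower).

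**Figure D1:**
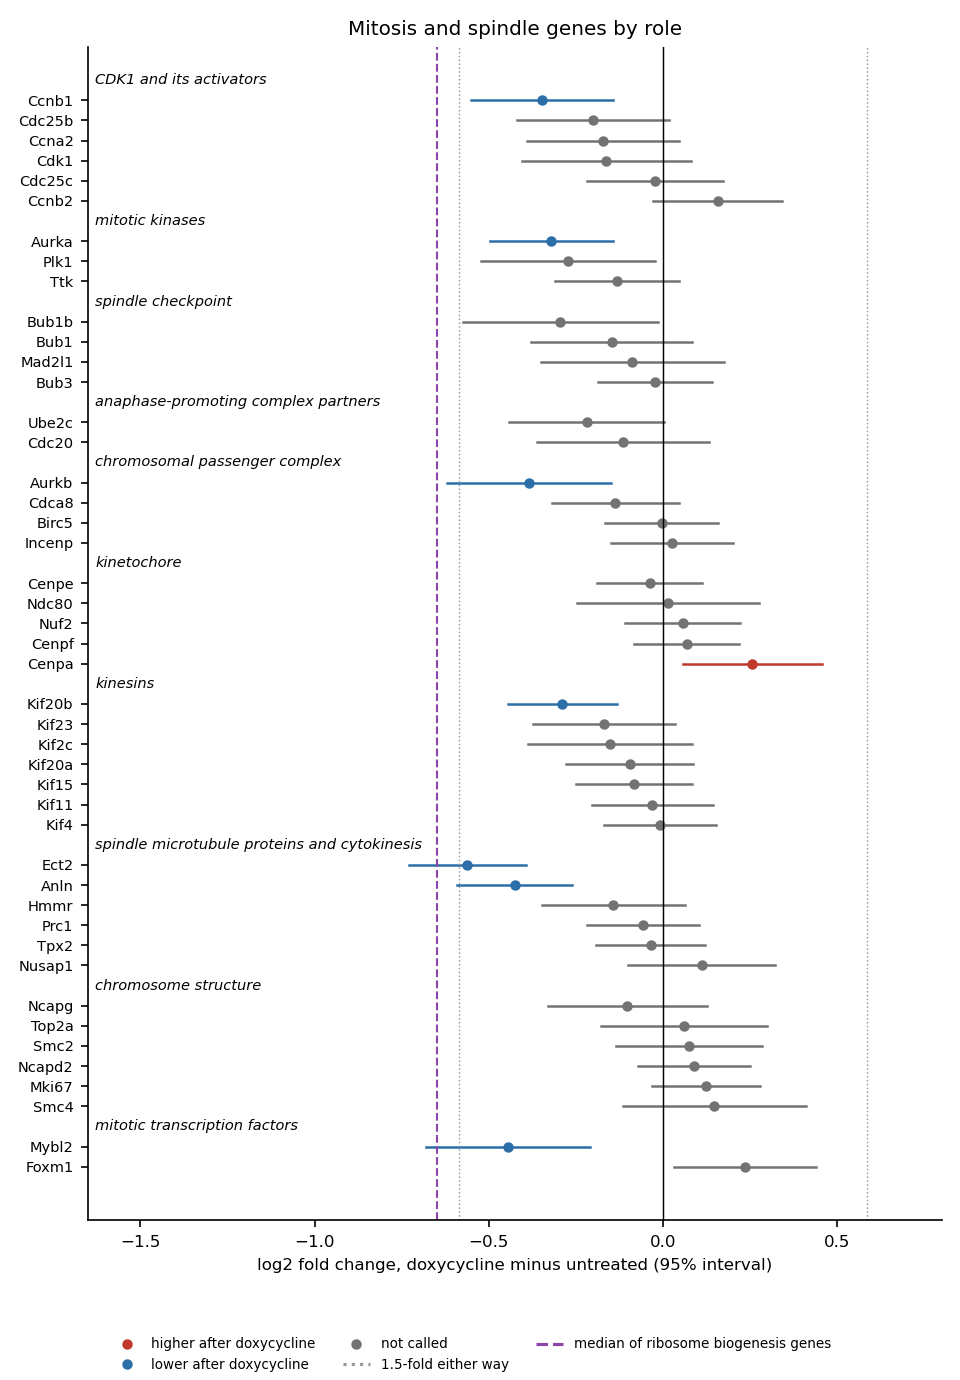
Log2 fold change of each of the 45 mitosis and spindle genes (doxycycline minus untreated, x axis) with its 95% interval, grouped by role. The 7 genes that fell are blue, the 1 that rose is red, the dotted lines mark 1.5-fold and the dashed line marks the ribosome biogenesis median of -0.65, which lies outside the intervals of 43 members.

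Most members with a promoter window held letters known from mitotic promoters. The choice of genes did not use these letters. Known mitotic genes were chosen, however, so the letters were likely beforehand and are only described. RefSeq promoter windows of GRCm38.p6, each with 250 bases before and 50 after a transcript start, were matched for 37 of 45 members (the first window listed per gene). The cell cycle genes homology region (CHR), the element through which DREAM and B-MYB complexes are known to bind mitotic promoters, was searched as TTTGAA on both strands. It was present in 28 of 37 member windows (75.7%), beside 18.1% of 27025 windows and 12.1% of the 9897 windows of tested genes. The CCAAT box, the site of the factor NF-Y, was searched as CCAAT on both strands. It stood in 27 of 37 (73.0%), beside 37.9% of all windows and 39.3% of the windows of tested genes. Both were present in 23 members and neither in 5. The letters TGGGAA, the core recognised by Ikaros, were in 7 of 37 (18.9%), beside 25.5% of all windows and 22.8% of the windows of tested genes. Neighbouring matches of CCAAT and of the other motifs can share a few end letters. A match describes these letters and is not a binding site.

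CHR matches in members lay close to the start. For 25 of the 28 members with a match, the nearest lay within 50 bases of it. Among called members with a window, 5 of 7 held the CHR letters, and among the members that did not pass 23 of 30 did. For CCAAT the counts were 4 of 7 and 23 of 30, and for the Ikaros core 3 of 7 and 4 of 30, which are descriptions of few windows with no test. The windows below belong to the member with the largest fall (Ect2, chr3:27153829-27154128, minus strand), the only rise (Cenpa, chr5:30666636-30666935, plus strand) and the members with the highest CPM (Top2a, chr11:99024140-99024439, minus strand, and Mki67, chr7:135716330-135716629, minus strand). They are written 5′ to 3′ on the gene's strand with CHR and CCAAT matches of either strand in capitals, so that TTCAAA and ATTGG are the same motifs read from the other strand.
Ect2: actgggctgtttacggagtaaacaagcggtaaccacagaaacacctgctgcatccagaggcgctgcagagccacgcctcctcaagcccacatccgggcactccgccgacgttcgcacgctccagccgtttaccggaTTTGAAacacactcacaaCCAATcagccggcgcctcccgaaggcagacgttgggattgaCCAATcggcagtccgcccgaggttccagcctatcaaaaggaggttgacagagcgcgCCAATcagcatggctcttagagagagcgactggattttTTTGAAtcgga
Cenpa: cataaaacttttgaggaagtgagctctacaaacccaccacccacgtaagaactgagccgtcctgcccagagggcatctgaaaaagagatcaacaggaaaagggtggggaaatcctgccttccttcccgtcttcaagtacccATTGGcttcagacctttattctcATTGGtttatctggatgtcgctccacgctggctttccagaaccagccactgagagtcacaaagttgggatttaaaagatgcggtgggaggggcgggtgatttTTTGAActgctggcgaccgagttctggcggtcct
Top2a: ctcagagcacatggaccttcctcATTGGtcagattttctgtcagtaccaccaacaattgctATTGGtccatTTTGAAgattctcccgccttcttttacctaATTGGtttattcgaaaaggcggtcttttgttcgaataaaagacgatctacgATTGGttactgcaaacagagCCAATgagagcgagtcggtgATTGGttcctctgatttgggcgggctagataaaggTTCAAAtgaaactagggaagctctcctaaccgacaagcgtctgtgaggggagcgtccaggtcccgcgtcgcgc
Mki67: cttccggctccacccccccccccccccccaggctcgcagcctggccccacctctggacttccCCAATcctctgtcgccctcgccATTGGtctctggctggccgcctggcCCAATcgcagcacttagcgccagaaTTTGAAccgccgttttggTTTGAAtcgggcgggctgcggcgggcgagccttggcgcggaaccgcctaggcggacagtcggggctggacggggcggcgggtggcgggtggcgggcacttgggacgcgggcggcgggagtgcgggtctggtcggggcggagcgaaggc
Ect2, whose level fell most, holds 2 CHR and 3 CCAAT matches, and Cenpa, which rose, holds 1 CHR and 2 CCAAT matches. Top2a and Mki67, which did not pass, hold 2 CHR matches each, with 6 and 3 CCAAT matches.

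**Figure D2:**
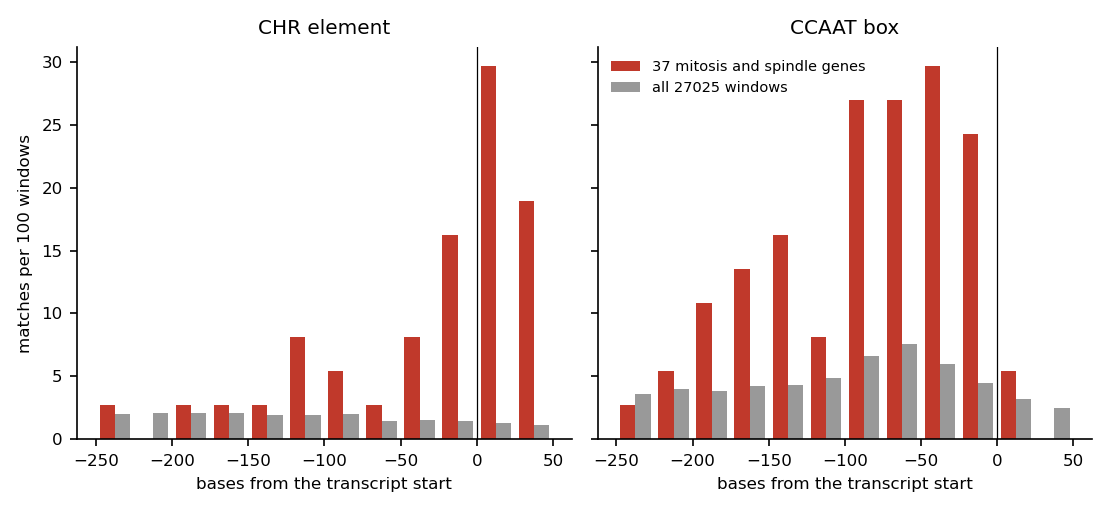
Matches of the CHR letters (left) and of the CCAAT box (right) per 100 promoter windows, in 25-base bins along the distance from the transcript start (x axis, bases), for the 37 members with a window (red) and for all 27025 windows (grey). CHR matches of members are most frequent between the start and 25 bases after it (29.7 per 100 windows, beside 1.3 for all windows). CCAAT matches of members are most frequent in the 100 bases before the start (24.3 to 29.7 per 100 windows in each bin). Over all windows CCAAT matches also peak there, at 7.6 per 100 windows between 75 and 50 bases before the start.

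CDK1 and its partners moved little. Ccnb1, encoding cyclin B1, was at 85.3, 85.3 and 95.3 CPM in doxycycline mice, against 126, 103 and 109 CPM in untreated mice. The groups did not overlap, and Ccnb1 fell by 0.35 ± 0.09 log2 units (SE, edgeR adjusted p = 0.0117). Its close relative Ccnb2, encoding cyclin B2, had the opposite sign and did not pass, with a log2 difference of 0.16 and an interval from -0.03 to 0.34. The ratio of Ccnb1 to Ccnb2 counts was 0.448, 0.402 and 0.423 in doxycycline mice and 0.72, 0.537 and 0.559 in untreated mice, without overlap. Since Ccnb1 was singled out for its fall, no test is given for that ratio. Ccna2, encoding cyclin A2, was at 314, 262 and 339.6 CPM, against 332, 346 and 354 CPM in untreated mice. The groups overlapped, with doxycycline mouse 2 the lowest, and the difference of -0.17 ± 0.10 did not pass (edgeR adjusted p = 0.163). Cdk1 itself and the activating phosphatase genes Cdc25b and Cdc25c had log2 differences between -0.20 and -0.02, and none passed.

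Among the mitotic kinases, Aurka fell. Aurka, encoding the Aurora A kinase of the spindle poles, was at 100.2, 104 and 117 CPM in doxycycline mice, against 131, 128 and 141 CPM in untreated mice. All 3 doxycycline mice were below all untreated mice, a fall of 0.32 ± 0.08 log2 units (edgeR adjusted p = 0.00906). Plk1, the polo-like kinase of mitotic entry and cytokinesis, was at 145, 152 and 185 CPM, against 182, 183 and 217 CPM in untreated mice. Doxycycline mouse 3 lay within the untreated range, and the difference of -0.27 ± 0.11 did not pass (edgeR adjusted p = 0.0673). It passed with DESeq2 (adjusted p = 0.0482), with the replicate number as a block (edgeR adjusted p = 0.0129) and without doxycycline mouse 3 (0.0186). The groups did not overlap for Ttk, the checkpoint kinase MPS1, but its log2 difference of -0.13 missed the threshold.

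Spindle checkpoint genes and partners of the anaphase-promoting complex gave no call. Bub1b, encoding the checkpoint protein BUBR1, was at 453, 595 and 523 CPM in doxycycline mice, against 721, 648 and 559 CPM in untreated mice. Both groups were wide and overlapped, and the difference of -0.29 ± 0.12 did not pass (edgeR adjusted p = 0.0763). It passed with DESeq2 (adjusted p = 0.0364) and, in edgeR, without doxycycline mouse 2 (adjusted p = 0.027) or untreated mouse 3 (0.0279). Bub1, Bub3 and Mad2l1, which encode further checkpoint proteins, had log2 differences between -0.15 and -0.02. Cdc20, the activator of the anaphase-promoting complex, was at 153, 195 and 192 CPM, against 187, 182 and 215 CPM in untreated mice, groups that overlapped (difference -0.12 ± 0.11, edgeR adjusted p = 0.399). Ube2c, its ubiquitin-conjugating enzyme, had a log2 difference of -0.22 with an interval from -0.44 to 0.003.

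Within the chromosomal passenger complex, which corrects kinetochore attachments, the kinase gene alone passed. Aurkb, encoding Aurora B, was at 137, 133 and 174 CPM in doxycycline mice, against 193, 187 and 199.7 CPM in untreated mice. It fell by 0.39 ± 0.10 log2 units without overlap (edgeR adjusted p = 0.0143), and doxycycline mouse 3 stood nearest to the untreated mice. Without doxycycline mouse 1 its adjusted p was 0.0583. Incenp, the scaffold of the complex, was at 337, 332 and 377 CPM, against 331, 330.1 and 366 CPM in untreated mice. The groups covered nearly the same range (difference 0.03 ± 0.08, interval -0.15 to 0.20, edgeR adjusted p = 0.793). Birc5, encoding survivin, and Cdca8, encoding borealin, had log2 differences of -0.004 and -0.14 and did not pass. Per length, levels in doxycycline mice were 108 RPKM for Incenp, 109 for Cdca8, 75.5 for Aurkb and 50.8 for Birc5, and in untreated mice 106, 120.1, 98.7 and 51.0 RPKM.

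Kinetochore genes were the only group besides chromosome structure with a median above 0. Cenpa, encoding the histone H3 variant that marks centromeres, was at 103, 128 and 122 CPM in doxycycline mice, against 96.8, 96.8 and 103 CPM in untreated mice. It rose by 0.26 ± 0.09 log2 units (edgeR adjusted p = 0.0382), and doxycycline mouse 1 was barely above untreated mouse 3. This call held without doxycycline mouse 1 and was lost without any other single mouse, with edgeR adjusted p-values from 0.0523 to 0.123. Cenpf, a kinetochore protein of late G2, was at 301, 306 and 325 CPM, against 286, 290 and 313 CPM in untreated mice, which overlapped (difference 0.07 ± 0.07, edgeR adjusted p = 0.424). Cenpe, Nuf2 and Ndc80, a kinetochore motor and parts of the NDC80 microtubule coupler, had log2 differences between -0.04 and 0.06.

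All 7 kinesin genes had fitted differences below 0, a sign shared by 6607 of 13134 tested genes, and only Kif20b passed. Kif20b, encoding a kinesin that acts in cytokinesis, was at 114, 106 and 116 CPM in doxycycline mice, against 145, 134 and 132 CPM in untreated mice. It fell by 0.29 ± 0.07 log2 units without overlap (edgeR adjusted p = 0.00822). Kif11, the Eg5 motor that pushes the spindle poles apart, was at 565, 521 and 616 CPM, against 587, 561 and 590.1 CPM in untreated mice. Doxycycline mouse 2 lay below the untreated range, mouse 3 above it and mouse 1 within it. The difference was -0.03 ± 0.08 (interval -0.20 to 0.14, edgeR adjusted p = 0.758). The sign of the Kif11 difference turned without doxycycline mouse 2 (0.04). Kif15, Kif20a, Kif23, Kif2c and Kif4 ranged from -0.17 to -0.01 and did not pass.

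Spindle microtubule and cytokinesis genes held the largest fall of the set. Ect2, the exchange factor that activates RhoA at the cell equator, was at 187, 179 and 204 CPM in doxycycline mice, against 292, 284 and 265 CPM in untreated mice. The gap between the groups was wider than the spread within either, and Ect2 fell by 0.56 ± 0.07 log2 units, or 32.2% (edgeR adjusted p = 0.000576). Anln, encoding the contractile ring scaffold anillin, was at 102, 89.9 and 103 CPM, against 131, 129 and 136 CPM in untreated mice. It fell by 0.43 ± 0.07 log2 units, or 25.6%, without overlap (edgeR adjusted p = 0.00179). Tpx2, a spindle assembly factor and activator of Aurora A, was at 344, 350.4 and 387 CPM, against 376, 359 and 373 CPM in untreated mice. These groups overlapped, and the difference was -0.04 ± 0.07 (edgeR adjusted p = 0.686). Nusap1, Hmmr and Prc1, which bind spindle microtubules, had log2 differences of 0.11, -0.14 and -0.06 and did not pass.

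Chromosome structure genes, which include the highest levels of the set, gave no call. Top2a, encoding the topoisomerase that untangles sister chromatids, was at 2191, 1759 and 2359 CPM in doxycycline mice, against 2056, 1987 and 2004 CPM in untreated mice. The doxycycline mice spanned the untreated range on both sides, and the difference was 0.06 ± 0.10 (interval -0.18 to 0.30, edgeR adjusted p = 0.651), with its sign turned without doxycycline mouse 3 (-0.02). Mki67, encoding the proliferation marker Ki-67, had a log2 difference of 0.12 with an interval from -0.03 to 0.28. The condensin genes Smc2, Smc4, Ncapg and Ncapd2, which encode the complex that compacts mitotic chromosomes, had differences of 0.07, 0.15, -0.10 and 0.09, and none passed. Per length, Top2a (403 RPKM in doxycycline mice, 386 in untreated mice) was the most abundant member and Smc4 (296 and 267 RPKM) the next, and Mybl2 (16.3 RPKM in doxycycline mice) and Anln (18.1 RPKM) were the lowest after doxycycline. Ndc80 (53.1 RPKM) and Nuf2 (48.7 RPKM), which encode partners of the same coupler, were close to each other in doxycycline mice and in untreated mice (52.6 and 46.8 RPKM).

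The transcription factor genes had opposite signs. Mybl2, encoding B-MYB, was at 63.2, 51.1 and 66.4 CPM in doxycycline mice, against 78.8, 79.8 and 87.3 CPM in untreated mice. It fell by 0.45 ± 0.10 log2 units, or 26.5%, without overlap (edgeR adjusted p = 0.00771). Foxm1, the forkhead activator of G2 genes, was at 217, 252 and 255 CPM, against 189.7, 201 and 224 CPM in untreated mice. Doxycycline mouse 1 lay within the untreated range, and the difference of 0.24 ± 0.09 did not pass (edgeR adjusted p = 0.0549). It did with the first run alone (0.0357), with the replicate number as a block (0.0262) and without doxycycline mouse 1 (0.0284) or untreated mouse 3 (0.029).

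**Figure D3:**
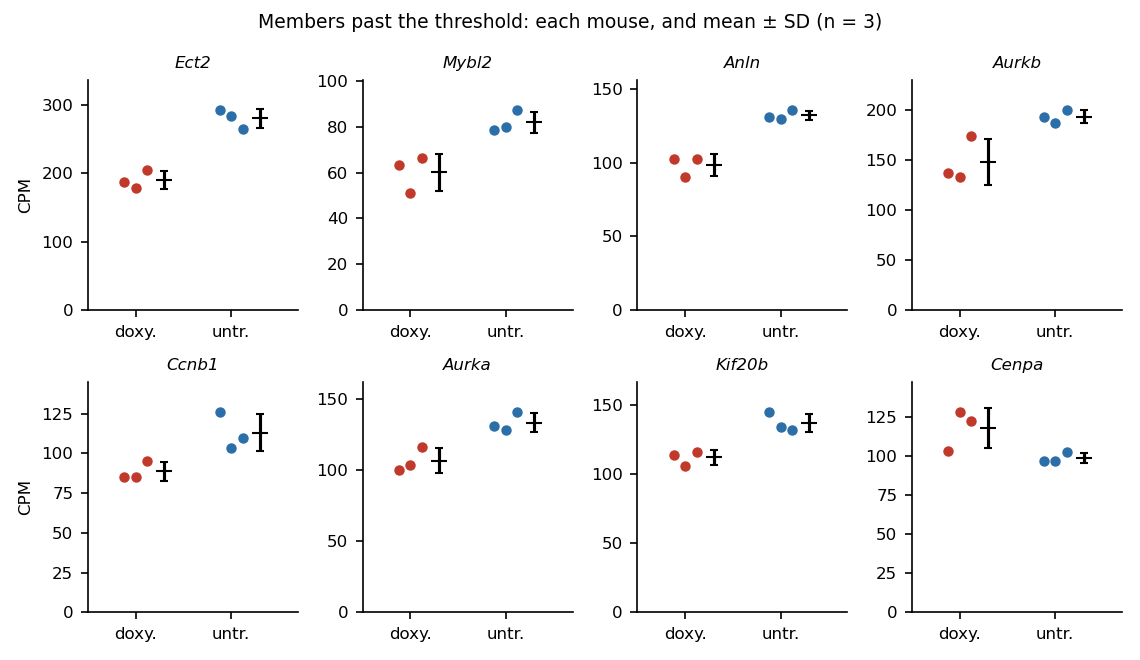
Level in CPM (y axes, from 0) of the 8 members past the threshold in each doxycycline mouse (red, left) and each untreated mouse (blue, right), with black bars for mean ± SD (n = 3). The groups do not overlap in any panel, from Ect2 (187, 179 and 204 CPM after doxycycline) to Cenpa, the only one that was higher.

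The doxycycline mice differed more among themselves than the untreated mice did. Summed over the 45 members, levels were 14545, 13374 and 15488 CPM in doxycycline mice (14469 ± 1059, mean ± SD, n = 3), against 14876, 14319.6 and 14711 CPM in untreated mice (14636 ± 286). Doxycycline mouse 2 was the lowest of all mice and doxycycline mouse 3 the highest, with the untreated mice in between. The median member was at -0.10, -0.18 and 0.04 log2 units from the untreated mean in doxycycline mice 1, 2 and 3, and between -0.04 and 0.04 in untreated mice. Doxycycline mouse 3 was the highest of its group for 37 of 45 members and the lowest for 0, and doxycycline mouse 2 was the lowest for 26. The median coefficient of variation of a member was 9.31% between doxycycline mice and 4.71% between untreated mice. It was larger in the doxycycline mice for 41 of 45 members (91.1%), beside 58.9% of all tested genes and 66.1% of those at or above the lowest member's level. These members share libraries and move together, so this count is not one of independent genes. Leaving out doxycycline mouse 3 gave 13 members lower and 0 higher, with 46.4% of all tested genes called. Leaving out doxycycline mouse 2 gave 8 lower and 2 higher, with 45.5% of all tested genes called.

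**Figure D4:**
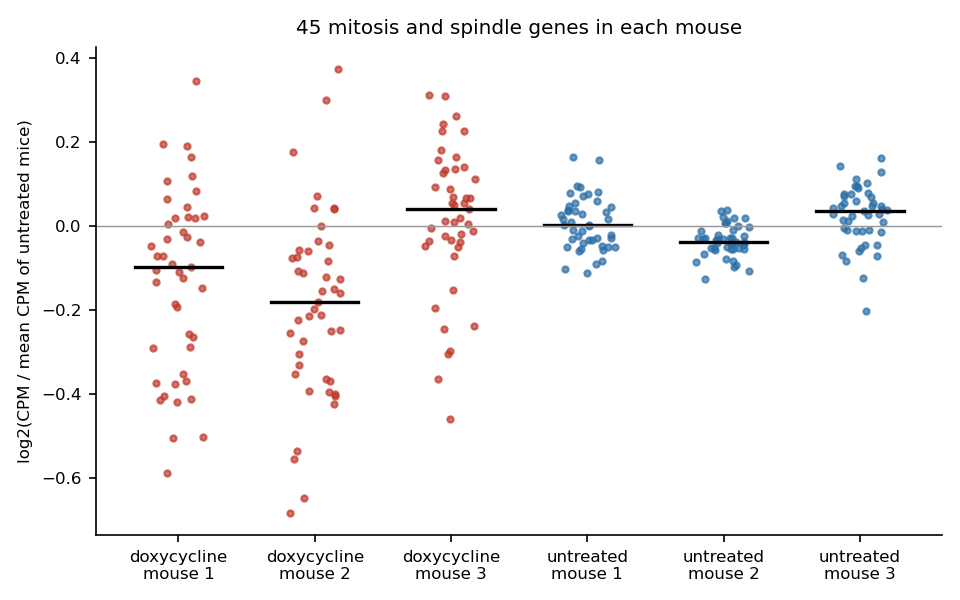
Level of the 45 members in each mouse as log2 of its CPM over the mean of the untreated mice (y axis), with 1 point per gene, doxycycline mice in red and untreated mice in blue, and a black bar at the median. The medians are -0.10, -0.18 and 0.04 in the doxycycline mice. Points of untreated mice are taken from their own group's mean, while those of doxycycline mice also hold each gene's difference between groups. The scatter of points within a mouse therefore does not compare the spread between mice.

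Other mitosis genes outside the set, from lists by pathway, were also called less often than the 50% of all tested genes, a difference that was not tested. Of 139 such genes, all tested, 30 fell and 11 rose (29.5%), and the median gene had a log2 fold change of -0.06. The numbers were 15 and 6 without untreated mouse 1, 18 and 6 without untreated mouse 2, 16 and 15 without doxycycline mouse 2, and 20 and 10 without doxycycline mouse 1. The median was -0.00017 without doxycycline mouse 2 and 0.0089 without both that mouse and untreated mouse 3 (tried only after seeing the data). Of 17 anaphase-promoting complex genes 3 fell and 0 rose (17.6%), namely Cdc16 (by 0.40 ± 0.06 log2 units), Anapc1 (by 0.27 ± 0.06) and Anapc5 (by 0.20 ± 0.07), all core subunits (edgeR adjusted p = 0.00124, 0.00572 and 0.0481). Of 36 further kinetochore and centromere genes 10 fell and 2 rose (33.3%). Mad2l1bp, encoding the checkpoint silencing factor p31comet, rose by 0.48 ± 0.09, while Knstrn and Cenpo fell by 0.35 ± 0.07 and 0.45 ± 0.09 (edgeR adjusted p = 0.00253, 0.00318 and 0.00361). In the list of 21 cohesin, condensin and separase genes 2 fell and 1 rose (14.3%). The cohesin loader gene Mau2 rose by 0.32 ± 0.07, the separase gene Espl1 fell by 0.34 ± 0.10 and Cdca5, encoding sororin, fell by 0.28 ± 0.09 (edgeR adjusted p = 0.00743, 0.0199 and 0.0273).

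Spindle, centrosome and cytokinesis genes beyond the set numbered 40, of which 6 fell and 4 rose (25%). Pimreg averaged 29.9 ± 4.95 CPM in doxycycline mice and 59.2 ± 5.95 CPM in untreated mice (SD, n = 3 each), a fall of 0.98 ± 0.13 log2 units, and Iqgap3, an IQ-domain scaffold, averaged 55.2 ± 7.995 CPM in doxycycline mice and 105 ± 13.2 CPM in untreated mice, a fall of 0.93 ± 0.13 (edgeR adjusted p = 0.000623 and 0.00073). Both falls were larger than that of any member. Haus8, a subunit of the augmin complex, fell by 0.63 ± 0.12 (edgeR adjusted p = 0.00262). Among 25 genes of mitotic entry and exit control 9 fell and 4 rose (52%), a share near the 50% of all tested genes and unlike the lower shares of the other mitosis lists, without a test of the difference. The phosphatase gene Cdc14b rose by 1.49 ± 0.21 to 10.4 ± 1.32 CPM in doxycycline mice, against 3.70 ± 0.999 CPM in untreated mice. Sfn, encoding the 14-3-3 sigma protein, rose by 0.98 ± 0.15 and Vrk1, a chromatin kinase gene, fell by 0.37 ± 0.06 (edgeR adjusted p = 0.000859, 0.00107 and 0.00174 for the 3 genes).

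Ribosome biogenesis and DNA replication genes, lists tied to growth and S phase, had lower medians. Of 45 ribosome biogenesis genes, 43 fell and 0 rose (95.6% called). Their log2 fold changes ran from -1.28 to -0.07, median -0.65. Of 41 DNA replication genes, 23 fell and 0 rose, and values ran from -0.58 to 0.25, median -0.26. The share called, 56.1%, was close to the 50% of all tested genes and to the 54.8% of those at or above the lowest member's level, while the lower calls alone made up 25.2% and 30.2% of these backgrounds. The intervals of 43 of 45 members lay wholly above the ribosome biogenesis median, the exceptions being Ect2 and Mybl2, and the intervals of 22 lay wholly above the DNA replication median. In each list the 3 genes with the smallest p were Polr1b, Utp20 and Wdr12 (log2 fold changes of -1.28, -0.81 and -0.81) and Tyms, Prim2 and Rpa2 (-0.49, -0.39 and -0.42). The lists were chosen with earlier results in view, and these counts are descriptions with no test of the difference between lists.

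**Figure D5:**
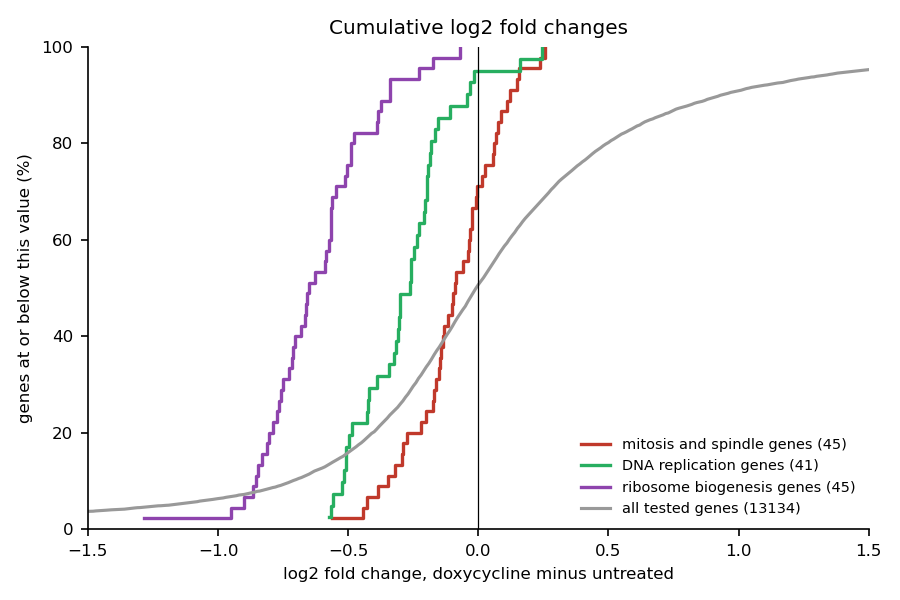
Cumulative share of genes (y axis, percent) at or below each log2 fold change (x axis, doxycycline minus untreated) for 45 mitosis and spindle genes, 41 DNA replication genes, 45 ribosome biogenesis genes and all 13134 tested genes. The medians are -0.09, -0.26, -0.65 and -0.0037, and the members' curve is steeper than that of all genes.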

How the data were processed

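RNA-seq gene counts were analysed for T-ALL spleen cells from 3 doxycycline and 3 untreated mice, with 2 runs of each RNA (12 libraries). The cells were flow-sorted, though whether untreated mouse 3 was sorted alike is not known from the labels. The authors deposited raw counts per Entrez gene with a gene length in bases, made with CASAVA 1.8.1 and featureCounts on mm10, per the submitters' processing notes. Not given in the sources used here are the aligner, the annotation, the strand setting and how multiply matching reads were treated, so genes with near-identical copies or antisense partners may share or lose reads. The whole-series table equalled the per-library tables in 12 of 12 libraries. Symbols came from RefSeq (GRCm38.p6) by Entrez identifier, matching 25275 of 27179 genes (93.0%). Runs were summed per mouse. The p-values rest on spread between mice and not between runs, and the fit moderates this spread over all tested genes.

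The comparison used edgeR 4.0.16 under R 4.3.3. Genes were filtered with filterByExpr and scaled with TMM, and a robust quasi-likelihood fit gave an F test per gene, with Benjamini-Hochberg adjustment over 13134 genes at 0.05. SE is the absolute log2 fold change over the square root of F, and the 95% interval uses the test's degrees of freedom. RPKM is CPM per kilobase of the deposited gene length. Exact permutation of 3 against 3 mice cannot give a p below 0.1. The members and lists were chosen with earlier results of these data known. Values per mouse are given for members past the threshold and for the member with the highest mean CPM of each role, and for other lists up to 3 genes with the smallest p are named. Ccnb2, Mki67 and other members given by their difference were named to account for the whole set. DESeq2 1.42.0 and limma-voom 3.58.1 were among the alternatives. Of the listed genes, Hbb-bt had no match.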

Additional observations from a re-analysis of the deposited data

How the results depend on the processing

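Across 16 alternatives (other size factors, other filters, DESeq2, limma-voom, each run alone, the replicate block and leaving out each mouse) and 1 added after the data were seen, Ect2, Anln, Mybl2, Ccnb1, Aurka and Kif20b stayed lower and past the threshold. Leaving out a single mouse gave between 6 and 13 members lower, between 0 and 2 higher, between 6 and 15 other mitosis genes higher and between 15 and 26 lower, and between 0 and 2 DNA replication genes higher. In these fits between 36.4% and 46.8% of all tested genes were called. The number of members higher was 2 with the first run alone and 2 with the replicate block, where 9 members were lower. The labels number the replicates but state no pairing between groups. Deviations of same-numbered mice had correlations of 0.156, -0.0116 and -0.103, which cannot settle whether any mice were paired. The block turned the direction of no named member. Without both untreated mouse 3 and doxycycline mouse 2, the added setting, 3 members, 22 other mitosis genes and 2 DNA replication genes were higher, Aurkb had an adjusted p of 0.0655 and Cenpa of 0.0609. Leaving out 1 mouse turned signs that did not pass: Kif11 ran from -0.0878 to 0.041, Incenp from -0.0276 to 0.0734 (also -0.0028 without untreated mouse 1 and -0.0044 without untreated mouse 2) and Top2a from -0.0227 to 0.188, and Kif11 was at 0.0482 in the added setting. The causes were not tested. At these depths every member had at least 1102 counts per mouse, and the spread between mice limits precision.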

Other observations

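Among 12 genes of the DREAM repressor and the MuvB core that it shares with B-MYB, 3 rose and 3 fell, so that 50% were called, the share found over all tested genes (50%). Rbl2, encoding the DREAM pocket protein p130, averaged 154 ± 15.6 CPM in doxycycline mice and 65.9 ± 3.61 CPM in untreated mice (SD, n = 3 each), a rise of 1.22 ± 0.09 log2 units. Dyrk1a, the kinase known to promote DREAM assembly, rose by 0.35 ± 0.07 and the MuvB gene Lin9 by 0.27 ± 0.07 (edgeR adjusted p = 5.2e-05, 0.00371 and 0.0143 for the 3 genes). The falls, named after their values were seen, were the repressor E2F genes E2f4 (by 0.25 ± 0.07) and E2f5 (by 0.53 ± 0.17) and their dimer partner gene Tfdp1 (by 0.22 ± 0.08; edgeR adjusted p = 0.0178, 0.0311 and 0.0431). Of 9 tested CDK inhibitor and pocket protein genes, a list that shares Rbl1 and Rbl2 with the DREAM list, 5 rose and 2 fell (77.8%, beside 50% of all tested genes called, 24.8% higher and 25.2% lower). Values included Cdkn2d, encoding p19INK4D, at 90.9 ± 4.17 CPM in doxycycline mice and 38.4 ± 7.52 CPM in untreated mice, and Cdkn1a, encoding p21, at 2.33 ± 0.719 CPM in doxycycline mice and 30.7 ± 7.82 CPM in untreated mice (edgeR adjusted p = 0.000254 and 0.000176). Cdkn1c, encoding p57 and named after its value was seen, was the other fall.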
